A study of Mus musculus with 696 samples.

Results

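Keratinocytes sampled 1 week after a second wound (1w pw2) were compared with keratinocytes sampled 1 week after a first wound (1w pw1), so that skin at the same time after its last wound differed in whether it had been wounded and had healed before. The cells were chosen by the time given in the labels, and they numbered 345 of the 696 cells of the series: 168 cells at 1w pw1, from plates of 89 and 79 cells, and 177 cells at 1w pw2, from plates of 86 and 91 cells. Counts were summed over the cells of each plate, so each time point entered as 2 plates. The other 4 plates held unwounded skin (0w) and skin 8 weeks after the first wound (8w pw1), and their values are given where they place a gene.

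All plates came from mice of a mixed CBA and C57BL/6 background that carried Lrig1-EGFP-ires-CreERT2 and Rosa26-fl/STOP/fl-tdTomato, and hydroxytamoxifen was put on the tail skin once, ahead of the wound, in controls and wounded mice alike. Cre was therefore expressed from Lrig1, which marks stem cells above the bulge of the follicle. Sorted tdTomato-positive cells are the cells labelled at that time and their progeny. The tissue of wounded mice held the wound bed together with distal follicles, so wounded and undamaged areas are mixed in each of the 4 plates compared. The mice were female, and the second wound was placed on the first after 8 weeks of healing. Mice at 1w pw2 were thus 9 weeks past the first wound, and the second wound, the stage that repair had reached, the animals' greater age and the longer time since labelling cannot be told apart. The labels give no age and tie no plate to an animal. Each time point carries its own letter in the sample titles, so a batch that the letter may mark cannot be told apart from the time point either. The study's methods describe 2 independent experiments, each based on 4 biological replicates, but no label says which plate belongs to which, so p-values measure only the spread between plates.

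After a full-thickness wound, keratinocytes at its edge leave their normal differentiation, switch on the stress keratins and migrate as a sheet over the bed, and cells of hair follicles are recruited into the repaired epidermis. Keratins 6, 16 and 17 are filament proteins of such activated cells, stefin A cystatins are inhibitors of cysteine proteases in the cornifying layers, and S100a8 and S100a9 are alarmins, which call in leukocytes. Follicle stem cells and their progeny are known to retain a memory of earlier inflammation or injury that can alter their response to the next one.

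Each of the 10 keratinocyte markers was detected on every plate, and all 345 cells held counts of at least 2 of them. The 4 plates summed to between 12950125 and 19760820 counts, and the median cell held 180800 and 256588 counts at 1w pw1 and 122416 and 141063 counts at 1w pw2. The median mitochondrial share of a cell was 17.9% and 23.9% at 1w pw1 and 14.3% and 13.04% at 1w pw2. Depth and mitochondrial share thus both moved with the time point, and their part in the results was not tested. Smart-seq2 amplifies without molecular identifiers, hence counts are reads. In sums over cells fewer cells of a type and less RNA per cell cannot be told apart. The biological coefficient of variation was 0.61.

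Of 13853 genes tested with edgeR's quasi-likelihood test, 0 (0%) passed an adjusted p of 0.05 with a fold above 2, and the smallest adjusted p was 0.781. At an unadjusted p below 0.05, edgeR counted 832 genes, of which 468 (3.38%) were higher and 364 (2.63%) were lower at 1w pw2. DESeq2, run as the alternative, called 42 genes, 29 higher (0.197% of the 14740 genes with an adjusted p) and 13 lower (0.0882%). Among all genes tested, 2750 (19.9%) had both 1w pw2 plates above both 1w pw1 plates and 2411 (17.4%) had both below, and these shares are the background for each count of non-overlapping plates given here. The 96 genes described had edgeR adjusted p values from 0.781 to 0.923, and over 16 further edgeR fits between 0.276 and 1, so no gene was called by edgeR under any of them. For 30 of the 96, 1 cell held over 50% of the counts of a plate of the group in which the gene was higher. Values are CPM, the counts scaled to a common library size by TMM, with replicate 1 first. The log2 fold changes are 1w pw2 over 1w pw1 from edgeR with their standard error (SE). The smallest p that an exact two-sided permutation test of 2 plates against 2 can give is 0.333, so none was run on single genes.

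Of the 4 stress keratins, 3 were lower after the second wound, and 1 was higher. Krt6b (chr15:101676023-101680287, minus strand), a type II keratin of activated and follicle keratinocytes, stood at 5141 and 2464 CPM at 1w pw1 and at 92.7 and 299 CPM at 1w pw2. In unwounded skin it had a level of 0 on both plates, and at 8w pw1 of 0.216 and 0.0652 CPM, so every wound plate lay above them, and the plates of the 2 wounds did not overlap. Its log2 fold change was -4.28 (SE 0.73), or 19.4-fold lower, and DESeq2 called it with an adjusted p = 8.68e-06. Without 1w pw1 replicate 1 the log2 value was -3.67 and without 1w pw2 replicate 2 it was -5.33, the ends of the range when either plate of either wound was left out.

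Krt6a, the neighbouring gene on the same strand (chr15:101689910-101694307), stood at 5798 and 3230 CPM at 1w pw1 and at 1070 and 1259 CPM at 1w pw2, against 49.9 and 50.7 CPM at 0w. The log2 fold change was -1.95 (SE 0.44), 3.88-fold lower, and DESeq2 called it with an adjusted p = 0.0465. The sequences of Krt6a and Krt6b are close, so reads could be split between them by the authors' quantification. Summed, the pair gave 10939 and 5694 CPM at 1w pw1 and 1163 and 1558 CPM at 1w pw2, a ratio of means of 6.11, and the plates of the 2 wounds still did not overlap.

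Krt16, the type I partner of keratin 6 in activated epidermis, stood at 2421 and 1776 CPM at 1w pw1 and at 276 and 1037 CPM at 1w pw2, with a log2 fold change of -1.68 (SE 0.63), which was -1.04 without 1w pw2 replicate 1 and -2.90 without replicate 2. Krt17, a type I keratin that the follicle also expresses at rest, stood at 1260 and 1072 CPM at 1w pw1 and at 3214 and 1978 CPM at 1w pw2, with a log2 fold change of 1.15 (SE 0.53). Neither was called by DESeq2 (adjusted p = 0.388 and 0.626), and both had plates that did not overlap. At 0w Krt17 stood at 962 and 358 CPM. The median log2 fold change over the 4 genes was -1.82, against 0.09 over all genes tested.

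**Figure D1:**
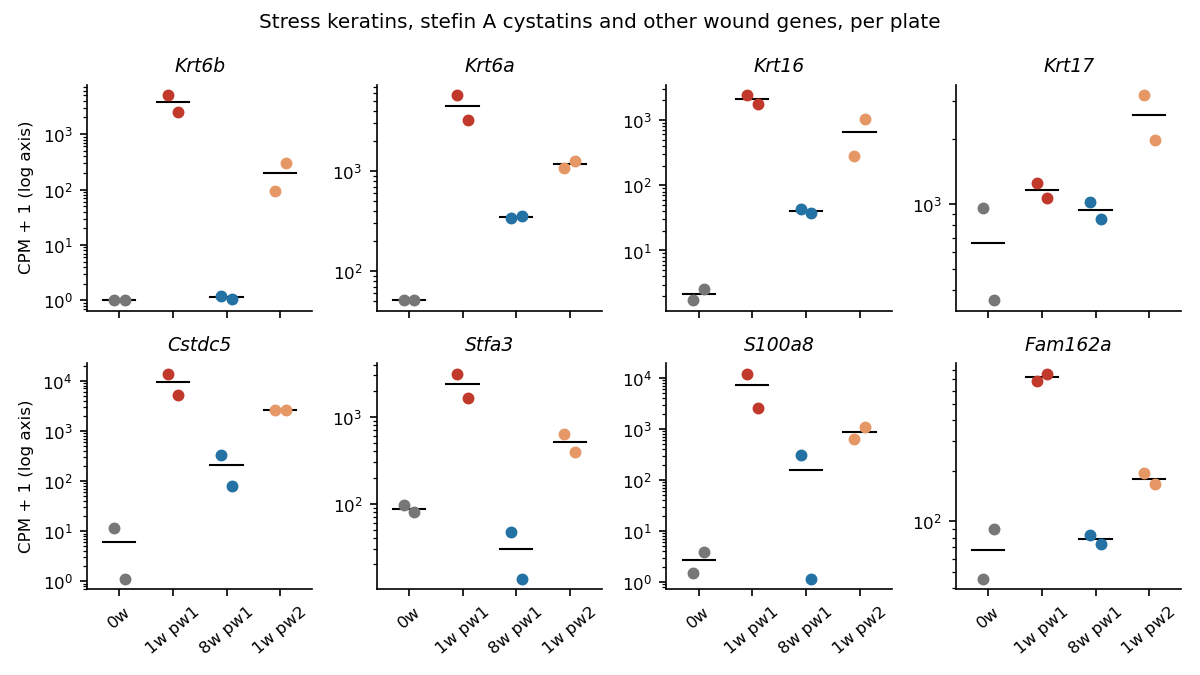
Level of 8 genes on each plate, in CPM + 1 on a log axis (each panel has its own range), with the 4 time points on the x axis; points are plates and the bar is the mean of the 2 plates. Krt6b, at 0 CPM in unwounded skin, reached 5141 and 2464 CPM after the first wound and 92.7 and 299 CPM after the second, whereas Krt17 was higher after the second.

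To count the cells with a stress keratin at 1 depth, each cell was thinned to 20000 counts, which left out 9 and 1 shallower cells at 1w pw1 and 3 and 8 at 1w pw2. After thinning, Krt6b was detected in 21 of 80 and 20 of 78 cells at 1w pw1 and in 12 of 83 and 10 of 83 cells at 1w pw2, and without thinning in 26 and 29 cells and in 16 and 12 cells. Among the cells with a Krt6b count, the median level in a cell was 2245 and 589 CPM at 1w pw1 and 54.1 and 179 CPM at 1w pw2. Krt6b was therefore detected in fewer cells after the second wound, and at a lower median level in those, although only 12 to 29 cells a plate are behind these medians. Krt6a differed in another way: after thinning it was detected in 49 and 47 cells at 1w pw1 and in 44 and 40 cells at 1w pw2, and in unwounded skin in 22 and 17 cells. Nearly as many cells were thus positive at the second wound, and their median level was 569 and 362 CPM against 1424 and 627 CPM at the first. Krt16 was detected in 32 and 26 cells at 1w pw1 and in 25 and 31 cells at 1w pw2 after thinning, and Krt17 in 60 and 53 cells and in 61 and 60 cells, so for Krt16 the plates overlapped and for Krt17 they were close. A single cell carried up to 44.2% of the Krt6b counts of a plate and up to 23.1% of its Krt6a counts.

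**Figure D2:**
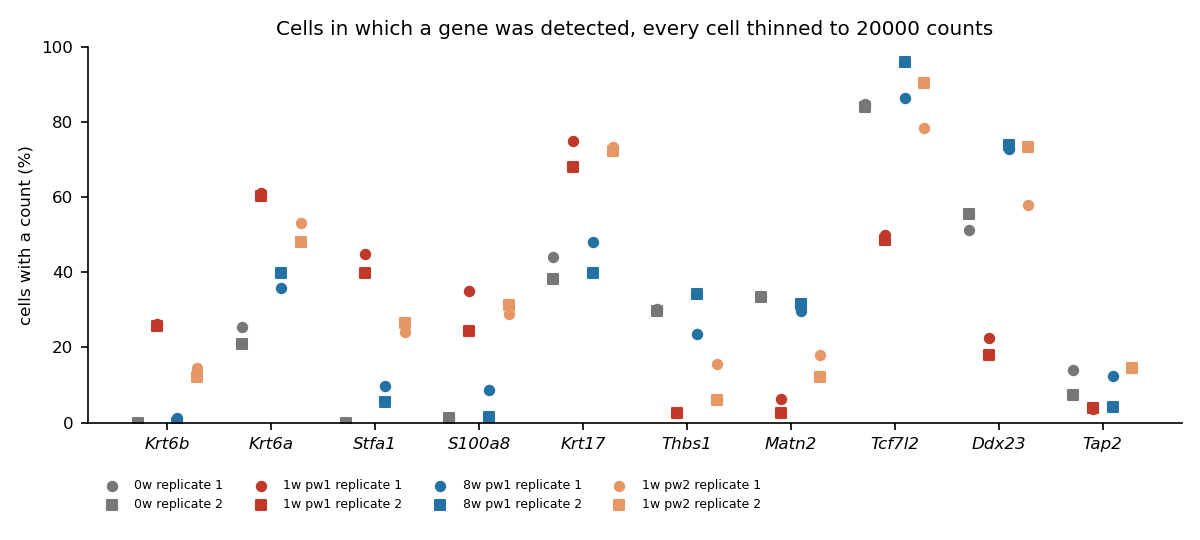
Share of cells in which a gene was detected, in % of the cells of a plate after each cell was thinned to 20000 counts, for 10 genes; colour marks the time point and the symbol the plate. Krt6b and Stfa1 were detected in fewer cells after the second wound than after the first, and Thbs1, Matn2, Tcf7l2, Ddx23 and Tap2 in more.

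The stefin A cystatins, 10 of which were in the table and 9 of which were tested, moved together. All 9 had a log2 fold change below 0, and 8 had both 1w pw2 plates below both 1w pw1 plates (17.4% of all genes did). At an unadjusted edgeR p below 0.05, 5 were lower (55.6% against 2.63% of all genes), and none was called by edgeR or DESeq2. Their median log2 fold change was -2.10 and lay between -2.61 and -1.38 over the settings tried. Summed over the 10 genes the level was 20372 and 8273 CPM at 1w pw1 and 3791 and 3617 CPM at 1w pw2, against 119 and 80.7 CPM at 0w, so both wounds were far above unwounded skin and the second below the first. The genes lie side by side on chromosome 16, and the RefSeq promoter windows of 9 listed members (GRCm38.p6) span 325 kb.

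The promoter windows of the 3 members with the most counts are printed because the genes moved together and are near copies of each other. Each window runs from 250 bases before to 50 bases after the start, is written 5′ to 3′ on the gene's own strand, and carries in capitals any match to TTGCNNAA, a C/EBP motif, or TGANTCA, an AP-1 motif, searched on both strands. C/EBP and AP-1 factors are regulators of keratinocyte differentiation and of the wound response.
Cstdc5, chr16:36367521-36367820, minus strand: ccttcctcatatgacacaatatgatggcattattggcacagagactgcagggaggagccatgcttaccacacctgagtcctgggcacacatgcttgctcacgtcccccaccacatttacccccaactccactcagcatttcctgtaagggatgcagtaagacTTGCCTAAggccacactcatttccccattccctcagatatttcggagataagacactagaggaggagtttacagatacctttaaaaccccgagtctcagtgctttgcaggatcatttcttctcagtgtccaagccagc
Stfa1, chr16:36276898-36277197, plus strand: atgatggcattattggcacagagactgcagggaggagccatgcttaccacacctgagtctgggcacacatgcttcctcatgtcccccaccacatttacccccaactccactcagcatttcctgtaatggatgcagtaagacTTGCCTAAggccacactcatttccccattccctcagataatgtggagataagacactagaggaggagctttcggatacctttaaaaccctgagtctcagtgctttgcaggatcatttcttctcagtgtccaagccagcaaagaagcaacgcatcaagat
Stfa3, chr16:36455343-36455642, minus strand: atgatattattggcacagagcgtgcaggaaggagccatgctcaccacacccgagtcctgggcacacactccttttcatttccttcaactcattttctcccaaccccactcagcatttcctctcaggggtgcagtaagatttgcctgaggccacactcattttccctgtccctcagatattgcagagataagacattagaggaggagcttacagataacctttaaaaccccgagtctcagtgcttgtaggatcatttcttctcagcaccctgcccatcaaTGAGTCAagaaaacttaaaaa
Cstdc5 and Stfa1 share an unbroken run of 59 identical bases and the same C/EBP match, and Stfa3 holds an AP-1 match near its start. Of the 9 stefin A genes with a window, 3 (33.3%) held the C/EBP motif, against 10.8% of all 32851 windows, and 1 (11.1%) held the AP-1 motif, against 7.81%. The stefin shares count genes with a match in any window, and the background counts single windows. These matches describe the windows and were not tied to the levels. Near-identical copies can share reads, so the values of single stefin genes are less certain than their sum.

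Cstdc5 stood at 13820 and 5269 CPM at 1w pw1 and at 2661 and 2566 CPM at 1w pw2, with a log2 fold change of -1.87 (SE 1.24). Stfa3 stood at 3141 and 1647 CPM at 1w pw1 and at 634 and 391.6 CPM at 1w pw2, with a log2 fold change of -2.22 (SE 0.65). Stfa1, listed at 0 CPM on both 0w plates, stood at 1877 and 876 CPM at 1w pw1 and at 285 and 464 CPM at 1w pw2. All 3 were above their unwounded levels after each wound, and in none did the plates of the 2 wounds overlap. The lowest log2 fold change was that of Csta3, -3.83 (SE 1.13), from 338 and 45.1 CPM to 4.41 and 22.6 CPM, and Csta2 had the smallest difference, -1.22 (SE 0.96), from 24.1 and 7.03 CPM to 8.12 and 5.18 CPM, the only tested member whose plates overlapped. One plate weighed on this family: without 1w pw1 replicate 1 the log2 fold change was -1.76 for Csta3, -1.03 for Cstdc5 and -0.09 for Csta2. The remaining members were Cstdc6 (-2.43), Stfa2 (-1.77), Cstdc4 (-2.46) and Csta1 (-2.10). After thinning, Stfa1 was detected in 36 and 31 cells at 1w pw1 and in 20 and 22 cells at 1w pw2.

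S100a8, listed near 0 at 0w (0.519 and 2.86 CPM), stood at 12200 and 2635 CPM at 1w pw1 and at 640 and 1088 CPM at 1w pw2. S100a9 stood at 1970 and 276 CPM at 1w pw1 and at 20.1 and 103 CPM at 1w pw2. Both sets of plates were apart, but the 1w pw1 plates themselves differed several-fold, and the log2 fold changes of -3.10 (SE 1.85) and -4.19 (SE 1.69) became -1.63 and -2.18 without 1w pw1 replicate 1. Neutrophils also make both genes. Of the 7 neutrophil markers, Ly6g and Retnlg were not in the table. Cxcr2 stood at 1.24 and 3.57 CPM at 1w pw1 and 0.63 and 2.37 CPM at 1w pw2, and Mmp8 at 0.915 and 1.76 CPM and 25.8 and 3.24 CPM, so the Cxcr2 plates overlapped and the Mmp8 plates were higher at the second wound, where 1 cell carried 98.1% and 96.7% of its counts. The part of neutrophils in its level was not tested. After thinning, S100a8 was detected in 28 and 19 cells at 1w pw1 and in 24 and 26 cells at 1w pw2, so the cells with the gene were about as many. Their median level was 245 and 226 CPM, against 3273 and 858 CPM at the first wound. Defb6, a beta-defensin of the upper follicle, stood at 8811 and 10133 CPM at 1w pw1 and at 4249 and 1875 CPM at 1w pw2. In all, 7 of 11 tested alarmins and secreted defence proteins were lower and 4 higher, with a median log2 fold change of -0.91. Plates were separate in 5 of the lower (45.5% of the list against 17.4% of all genes) and 1 of the higher (9.09% against 19.9%). At an unadjusted edgeR p below 0.05, 1 was lower (9.09% against 2.63% of all genes) and 1 higher (9.09% against 3.38%).

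Other differentiation genes differed by list. Of 26 suprabasal and granular genes, 19 were lower, 9 of them with separate plates (34.6% of the list against 17.4% of all genes). At an unadjusted p below 0.05, 3 were lower (11.5% against 2.63% of all genes) and 0 higher. The median log2 fold change was -0.45. Krtdap, a secreted protein of early differentiation, stood at 11643 and 5575 CPM at 1w pw1 and at 3502 and 2104 CPM at 1w pw2, with a log2 fold change of -1.62 (SE 0.53), or -1.004 without 1w pw1 replicate 1. Skint6, of a family of immunoglobulin-like proteins of skin and thymus, stood at 36.4 and 70.0 CPM at 1w pw1 and at 19.3 and 19.05 CPM at 1w pw2. Cornified envelope genes were split evenly, 10 of 20 higher and 10 lower, with a median of 0.06. Clade B serpins were split too, 7 of 15 higher, and Serpinb6a, an intracellular protease inhibitor, stood at 276 and 164 CPM at 1w pw1 and at 84.1 and 103 CPM at 1w pw2.

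A further set of lower genes came from the rule that ranks all genes by their unadjusted p. Fam162a, a hypoxia-inducible mitochondrial protein, stood at 683 and 757 CPM at 1w pw1, at 192 and 165 CPM at 1w pw2 and at 44.2 and 89.5 CPM at 0w, with a log2 fold change of -2.01 (SE 0.48) and a DESeq2 adjusted p = 0.0538. Orm1, an acute-phase plasma protein, stood at 66.0 and 100.7 CPM at 1w pw1 and at 22.7 and 17.6 CPM at 1w pw2, the latter close to the 19.8 and 11.3 CPM of 0w. Both were thus above their unwounded level at the first wound and lower at the second. By contrast, Zmym1, a zinc finger gene, stood at 20.8 and 23.1 CPM at 1w pw1, 22.7 and 22.1 CPM at 0w and 25.7 and 11.1 CPM at 8w pw1, and at 3.43 and 4.59 CPM at 1w pw2, below each of these plates. DESeq2 called Zmym1 with an adjusted p = 0.044. The zinc finger gene Zfp970 stood at 105 and 14.9 CPM at 1w pw1 and at 3.92 and 5.07 CPM at 1w pw2 (DESeq2 adjusted p = 0.00213), and its log2 fold change of -3.73 became -1.74 without 1w pw1 replicate 1. Swi5, a DNA repair factor, Tmem263 and Btaf1, a regulator of the TATA-binding protein, had log2 fold changes of -1.59, -2.24 and -1.69 and completed the 12 lower genes together with Krt6a, Krt6b, Fos and the ribosomal genes Rpl5 and Rps27a.

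Several genes that were lower at 1w pw1 than at 0w were higher at 1w pw2. They were named for their low p or by DESeq2, not as a list. Thbs1 (chr2:118111876-118127133, plus strand) encodes thrombospondin 1, a matrix glycoprotein found here among the bulge genes. It stood at 174 and 156 CPM at 0w, at 6.08 and 2.99 CPM at 1w pw1, at 138 and 99.9 CPM at 8w pw1 and at 60.6 and 28.1 CPM at 1w pw2. The 1w pw2 plates lay between those of the first wound and those of unwounded or healed skin. Its log2 fold change over the first wound was 3.29 (SE 0.60), 9.77-fold, with a DESeq2 adjusted p = 0.000329. After thinning, Thbs1 was detected in 2 of 80 and 2 of 78 cells at 1w pw1, in 13 of 83 and 5 of 83 cells at 1w pw2 and in 26 and 24 cells at 0w. With every cell weighted equally, in place of the counts summed, the log2 fold change was 1.73.

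Matn2 (chr15:34306677-34436273, plus strand) encodes matrilin 2, an adaptor protein of the extracellular matrix. It stood at 89.0 and 143 CPM at 0w, at 5.43 and 8.38 CPM at 1w pw1, at 115 and 74.9 CPM at 8w pw1 and at 34.8 and 44.5 CPM at 1w pw2, so its order over the time points was that of Thbs1. The log2 fold change was 2.52 (SE 0.53) with a DESeq2 adjusted p = 0.01, and 1.16 under a stricter limit on cells, which dropped those under 2000 genes or over 20% mitochondrial counts. Itga2, an integrin subunit that binds collagen, stood at 2.81 and 1.64 CPM at 1w pw1 and at 8.33 and 15.6 CPM at 1w pw2 (DESeq2 adjusted p = 0.0465), but 1 cell carried 82.4% of the counts of 1w pw2 replicate 2. Prss23, a secreted serine protease, stood at 12.3 and 7.38 CPM at 1w pw1 and at 38.6 and 244 CPM at 1w pw2 (DESeq2 adjusted p = 0.00601), but 1 cell carried 85.2% of the counts of 1w pw2 replicate 2. Without that plate its log2 fold change of 3.85 became 1.998. Cspg4, a membrane proteoglycan that is also on the pericyte marker list, stood at 0.719 and 0 CPM at 1w pw1 and at 8.61 and 2.81 CPM at 1w pw2, against 34.6 and 7.77 CPM at 0w (DESeq2 adjusted p = 0.0473). The 0w levels of each of these 5 genes were above those of 1w pw1. For Thbs1, Matn2, Itga2 and Prss23, being higher on both 1w pw2 plates was a condition of the ranking rule and is no finding. Others of that ranking differed at 0w. Eno1b, at 8.20 and 13.97 CPM, and Cldn4, at 9.92 and 3.67 CPM, overlapped with 1w pw1 there. Krt36, at 0 and 0.863 CPM, lay below it.

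Bulge genes as a list did not share this difference. Of 20 tested, 12 were higher, 3 with separate plates (15% of the list against 19.9% of all genes), and the median log2 fold change of 0.09 equalled that of all genes. Tcf7l2, a transcription factor of the Wnt pathway, was among the 3, at 66.0 and 43.9 CPM at 1w pw1 and at 100.9 and 240 CPM at 1w pw2. At 0w it stood at 128 and 243 CPM. After thinning it was detected in 40 of 80 and 38 of 78 cells at 1w pw1 and in 65 of 83 and 75 of 83 cells at 1w pw2. Basal keratinocyte genes were split as well, 7 of 17 higher. Their median was -0.15 and lay between -0.31 and 0.89 over the settings tried. The 4 at an unadjusted p below 0.05 were all higher (23.5% of the list against 3.38% of all genes). These were Krt15, a keratin of bulge and basal cells, at 403 and 150 CPM at 1w pw1 and 589 and 776 CPM at 1w pw2; Ccnd2, cyclin D2, at 51.0 and 47.8 CPM and 116 and 103 CPM; Itga3, at 1.63 and 0.410 CPM and 12.1 and 2.21 CPM; and Itgb4, at 25.4 and 8.73 CPM and 120 and 27.5 CPM. Itga3 and Itgb4 are subunits of the integrins that bind keratinocytes to laminin. At 0w Krt15 stood at 686 and 607 CPM, and Ccnd2 at 388 and 288 CPM. The 0w plates of Itga3 were at 18.4 and 7.93 CPM, and those of Itgb4 at 89.9 and 19.7 CPM. For Krt15, Ccnd2 and Itga3 both 0w plates thus lay above both 1w pw1 plates, and for Itgb4 they overlapped. In all 4 both plates of the second wound lay above both of the first. Picking genes by a low p in this same comparison favours that, so it is no further finding. The Itga3 and Itgb4 values without 1w pw2 replicate 1 were 1.09 and 0.67 on the log2 scale.

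Lrig1, the gene whose locus labelled the cells, stood at 17.0 and 30.4 CPM at 1w pw1 and at 35.1 and 31.1 CPM at 1w pw2, with a log2 fold change of 0.48 (SE 0.55), so its plates did not overlap but the difference was smaller than its SE. Of the 16 junctional zone and infundibulum genes, 9 were higher, and the median was 0.07. Ly6a, a surface protein of keratinocytes in injured skin, stood at 747 and 493 CPM at 1w pw1, at 278 and 156 CPM at 1w pw2 and at 102 and 31.5 CPM at 0w, so it was lower at the second wound with separate plates (log2 fold change -1.52, SE 0.62). Postn, periostin, stood at 94.2 and 127 CPM at 1w pw1 and at 143 and 284 CPM at 1w pw2, against 1220 and 430 CPM at 0w. Cldn4, a tight junction protein, stood at 8.63 and 6.80 CPM at 1w pw1 and at 44.6 and 32.9 CPM at 1w pw2, above the other time points as well, of which the highest plate was at 20.2 CPM. On 1w pw2 replicate 2 a single cell held 64.5% of the Cldn4 counts.

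**Figure D3:**
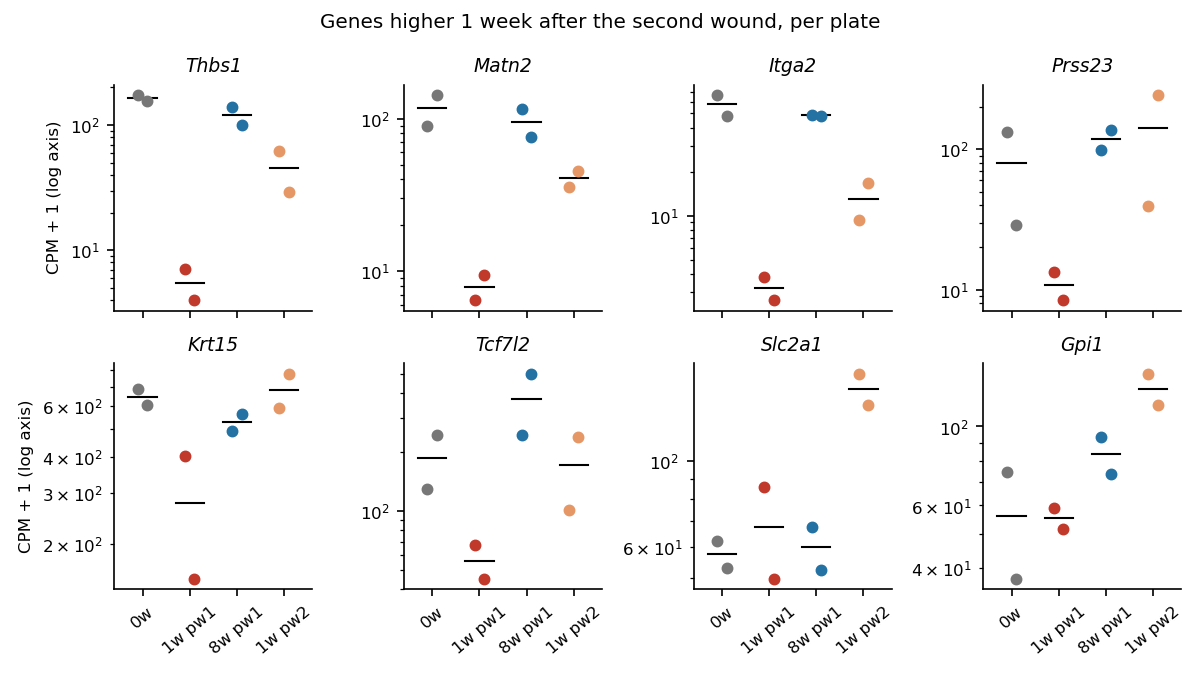
Level of 8 genes that were higher after the second wound, in CPM + 1 on a log axis (each panel has its own range), by time point; points are plates and the bar is the mean of the 2 plates. Thbs1, Matn2 and Itga2 were lowest after the first wound and lay between it and the 0w and 8w pw1 plates after the second, while Slc2a1 was highest after the second wound.

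Slc2a1 encodes Glut1, the main glucose importer of keratinocytes, and the study used it as a marker of highly glycolytic cells. Its level was 84.7 and 48.6 CPM at 1w pw1 and 167 and 138 CPM at 1w pw2, against 61.3 and 52.1 CPM at 0w and 66.5 and 51.5 CPM at 8w pw1. Both plates of the second wound were above the 6 others, and the log2 fold change over the first wound was 1.19 (SE 0.48), or 2.29-fold, which DESeq2 did not call (adjusted p = 0.516). Under the stricter filter on cells the log2 value was 0.59. It was detected in about as many cells, 23 and 21 after thinning at 1w pw1 and 25 and 21 at 1w pw2, and 1 cell carried 51.9% of the counts of 1w pw2 replicate 2. The promoter window of Slc2a1 is shown because both plates lay above all others, with the hypoxia response core ACGTG, which HIF1 binds, in capitals.
Slc2a1, chr4:119108495-119108794, plus strand: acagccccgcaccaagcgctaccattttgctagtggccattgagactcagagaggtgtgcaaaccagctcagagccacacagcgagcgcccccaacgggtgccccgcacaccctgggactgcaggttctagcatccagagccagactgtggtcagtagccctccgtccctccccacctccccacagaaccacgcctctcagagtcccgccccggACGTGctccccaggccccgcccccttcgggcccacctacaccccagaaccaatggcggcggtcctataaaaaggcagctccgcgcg
The core was present in a window of 10 of 15 glycolysis genes (66.7%) and 14 of 18 hypoxia targets (77.8%), against 19.6% of all windows. The list shares count genes with a match in any of their windows and the background counts single windows, so they are not alike. These matches were not tied to the levels.

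Of 14 glycolytic enzymes, 9 were higher and 5 lower at 1w pw2, and the median log2 fold change was 0.43, against 0.09 over all genes. Plates were separate in 7 of the higher (50% of the list against 19.9% of all genes) and 3 of the lower (21.4% against 17.4%). Gpi1, glucose-6-phosphate isomerase, stood at 57.9 and 50.5 CPM at 1w pw1 and at 140 and 114 CPM at 1w pw2, and was the only enzyme at an unadjusted p below 0.05 (log2 fold change 1.22, SE 0.50). Pkm, pyruvate kinase, stood at 258 and 175 CPM at 1w pw1 and at 310 and 482 CPM at 1w pw2. Enzymes on the lower side were Pgk1, at 374 and 363 CPM and 107 and 308 CPM, and Ldha, at 671 and 940 CPM and 306 and 730 CPM, so members lay on both sides. Without 1w pw2 replicate 1 these were -0.28 and -0.16 on the log2 scale, against -0.83 and -0.64 with it. Eno1b, a copy of the enolase gene Eno1, was called by DESeq2 (adjusted p = 0.0024) at 7.06 and 9.55 CPM at 1w pw1 and 43.8 and 78.1 CPM at 1w pw2. Reads may be divided between the copies, and Eno1 and Eno1b together gave 312 and 207 CPM at 1w pw1 and 335 and 494 CPM at 1w pw2. Hypoxia targets were mixed, 13 of 23 higher with a median of 0.12. Ero1a, an oxidase of the endoplasmic reticulum, stood at 151 and 179 CPM at 1w pw1 and at 64.7 and 55.7 CPM at 1w pw2. P4ha1, a collagen prolyl hydroxylase subunit, stood at 5.56 and 5.21 CPM at 1w pw1 and at 13.4 and 23.7 CPM at 1w pw2. Its 0w plates, at 17.4 and 17.1 CPM, lay between those of the second wound.

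Mitochondrial and ribosomal transcripts were lower in part. Of the 13 subunits encoded by the mitochondrial genome, 12 were lower, and the median was -0.33. Plates were separate in 6 of the lower (46.2% of the list against 17.4% of all genes). mt-Co1, a subunit of cytochrome c oxidase, stood at 74253 and 67002 CPM at 1w pw1, at 32767 and 37484 CPM at 1w pw2 and at 43381 and 48826 CPM at 0w. mt-Nd4l, of complex I, stood at 1992 and 2764 CPM at 1w pw1 and at 690 and 1005 CPM at 1w pw2. These go with the lower mitochondrial share per cell given at the start, which the authors also used as a quality limit, and the part of cell quality in them was not tested. Nuclear genes of oxidative phosphorylation had a median of -0.03, with 33 of 74 higher: Uqcrb, Ndufa1 and Ndufb5 had log2 fold changes of -1.27, -1.50 and -1.14, and Ndufv1 had one of 1.79. Of the 79 cytosolic ribosomal proteins, 43 were lower, 22 of them with separate plates (27.8% of the list against 17.4% of all genes). At an unadjusted p below 0.05, 7 were lower (8.86% against 2.63% of all genes) and 0 higher. The median was -0.09 and changed sign over the settings tried, between -0.77 and 0.32.

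Rpl5, a ribosomal protein that binds 5S RNA, stood at 17872 and 15438 CPM at 1w pw1, at 4630 and 6055 CPM at 1w pw2 and at 6620 and 7954 CPM at 0w, with a log2 fold change of -1.64 (SE 0.41). Rps27a, a fusion of ubiquitin and a ribosomal protein, stood at 5485 and 4740 CPM at 1w pw1 and at 1808 and 1723 CPM at 1w pw2. For both, the second-wound plates were at or below the unwounded ones and the first-wound plates above them. Rpl39 and Rpl23 had log2 fold changes of -1.53 and -1.42.

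Immediate early genes, which switch on within minutes of a stimulus and also during tissue dissociation, were lower in 13 of 21 cases and higher in 8. Plates were separate in 8 of the lower (38.1% of the list against 17.4% of all genes) and 5 of the higher (23.8% against 19.9%). The median was -0.24, and 0.09 without 1w pw2 replicate 2. Fos, a subunit of AP-1, stood at 525 and 705 CPM at 1w pw1 and at 145 and 205 CPM at 1w pw2. The 0w plates, at 486 and 790 CPM, resembled those of the first wound and the 8w pw1 plates, at 141 and 199 CPM, those of the second. Whether a difference in handling between plates moved with Fos was not tested. Atf3, a stress-induced transcription factor, stood at 26.7 and 18.5 CPM at 1w pw1 and at 4.06 and 10.2 CPM at 1w pw2, and its log2 fold change of -1.66 became -0.18 under the stricter filter on cells. Myc, a driver of growth, stood at 6.73 and 6.68 CPM at 1w pw1 and at 24.7 and 15.9 CPM at 1w pw2. At 0w it stood at 15.4 and 12.5 CPM and at 8w pw1 at 15.8 and 12.3 CPM, above the first wound as well. The 15 heat shock genes, 11 of which were lower, had a median of -0.15 and 0 members at an unadjusted p below 0.05.

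Of the cell cycle genes, 16 of 36 were higher, with a median of -0.09 that became 1.496 without 1w pw1 replicate 2. At an unadjusted p below 0.05, 3 were higher (8.33% of the list against 3.38% of all genes). All 3 were genes of the MCM helicase, which licenses DNA replication. Mcm5 stood at 2.68 and 3.11 CPM at 1w pw1 and at 11.3 and 19.96 CPM at 1w pw2, Mcm3 at 2.22 and 1.11 CPM and 6.86 and 5.99 CPM, and Mcm7 at 5.62 and 5.98 CPM and 21.9 and 11.3 CPM. On the 1w pw2 plates 1 cell held 59.9% and 67.03% of the Mcm5 counts, and on replicate 2 of them 1 cell held 57.7% of the Mcm3 counts. Mcm2 to Mcm7 summed to 53.7 and 52.6 CPM at 1w pw1 and to 78.1 and 81.6 CPM at 1w pw2, against 158 and 197 CPM at 0w, so the second-wound plates lay above the first and below unwounded skin. The other members did not all do so, since Mcm4 and Mcm6 together summed to 39.6 and 38.8 CPM at 1w pw1 and to 25.4 and 37.8 CPM at 1w pw2.

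Leaving out markers of other cell types, the list with the highest median log2 fold change, 1.21, was that of the interferon response and antigen presentation. Of 29 tested, 22 were higher, 12 with separate plates (41.4% of the list against 19.9% of all genes) and 6 at an unadjusted p below 0.05 (20.7% against 3.38%). Tap2, which carries peptides to class I molecules, stood at 2.22 and 1.35 CPM at 1w pw1 and at 18.5 and 12.1 CPM at 1w pw2. Its plates at 0w, at 11.2 and 3.83 CPM, and at 8w pw1, at 12.5 and 2.94 CPM, were also above those of 1w pw1. Tap2 was detected in 13 and 11 cells at 1w pw1 and 37 and 29 cells at 1w pw2, or after thinning in 3 and 3 and in 12 and 12 cells. H2-K1, a class I heavy chain chosen after its values were seen, stood at 74.8 and 110 CPM at 1w pw1 and at 201 and 257 CPM at 1w pw2, and the 8w pw1 plates were also high, at 195 and 258 CPM. Tap2 and H2-K1 were spread over many cells, but others of the 6 were not: Cd74, the invariant chain of class II, was at 0 CPM on 3 of the 4 plates and at 15.5 CPM on 1w pw2 replicate 2, where it was detected in 3 cells. Gbp2 and Gbp7, interferon-induced GTPases, stood at 10.3 and 11.5 CPM on that plate and at most at 0.14 CPM on the other 3, with 2 and 6 cells holding counts. Summed, the list was at 754 and 1234 CPM at 1w pw1 and 1114 and 1261 CPM at 1w pw2, so the summed plates of the 2 wounds overlapped. The sums were 731 and 1244 CPM at 0w and 1100 and 1690 CPM at 8w pw1.

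Cytokines of the interleukin-1 family and others were higher in 19 of 29 cases with a median of 0.34, which lay between -0.03 and 0.63 over the settings tried and was -0.03 without 1w pw2 replicate 2. Il22ra1, a receptor subunit for interleukin 22, stood at 2.16 and 2.34 CPM at 1w pw1 and at 12.6 and 12.2 CPM at 1w pw2, the last with 76.99% of its counts in 1 cell. Cxcl14, a chemokine of resting epidermis, stood at 7.26 and 2.93 CPM and at 21.1 and 12.1 CPM. Its 0w plates were higher than these, at 37.3 and 32.7 CPM. Ligands and receptors of the EGF family, which drive keratinocyte migration, were lower in 10 of 15 cases with a median of -0.36, while the ligand Nrg4 stood at 1.31 and 0.644 CPM at 1w pw1 and at 6.51 and 9.01 CPM at 1w pw2. Nrg4 was detected in 6 cells on each of the last plates, of which 1 held 64.5% and 84.4% of its counts. Genes of cell migration and wound matrix were split, 15 of 34 higher with a median of -0.19. That median changed sign over the settings tried, between -0.22 and 0.82. Inhba, a subunit of activin, stood at 1.31 and 0.762 CPM at 1w pw1 and at 2.03 and 31.1 CPM at 1w pw2, the last value from a plate on which 1 cell held 83.3% of its counts.

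The lipid lists had medians above 0 that depended on single settings. Sterol synthesis enzymes were higher in 15 of 22 cases, 6 with separate plates (27.3% of the list against 19.9% of all genes), with a median of 0.51. Sebaceous gland genes were higher in 16 of 25 cases, 7 with separate plates (28% against 19.9%), with a median of 0.77. Without 1w pw2 replicate 1 the sebaceous median was -0.01, and under the stricter filter on cells the sterol median was 0.06. Mvk, mevalonate kinase, stood at 10.7 and 12.9 CPM at 1w pw1 and at 32.0 and 27.3 CPM at 1w pw2, above all 6 other plates. Fasn, fatty acid synthase, stood at 40.1 and 23.7 CPM at 1w pw1 and at 134 and 42.9 CPM at 1w pw2. Its 0w plates were at 68.8 and 54.1 CPM. In contrast, the summed level of the sebaceous genes was lower, at 45070 and 25124 CPM at 1w pw1 and 7781 and 9917 CPM at 1w pw2, so the median and the sum of that list differ in direction. Keratinocyte transcription factors (12 of 29 higher, median -0.11) and Polycomb genes (12 of 26 higher, median -0.06) had 0 members at an unadjusted p below 0.05.

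Tail skin forms scales, whose hard keratins include Krt36 and Krt84. Krt36 stood at 2.48 and 2.99 CPM at 1w pw1 and at 8.89 and 1214 CPM at 1w pw2, and Krt84 at 12.6 and 2.11 CPM and at 10.8 and 449 CPM. On 1w pw2 replicate 2 a single cell carried 99.4% of the Krt36 counts and a single cell 94.7% of the Krt84 counts, and without that plate the log2 fold changes of 7.80 and 4.97 became 1.72 and 0.58. For these genes the difference is therefore mainly that of 1 plate, with most counts in 1 cell each. Of the 6 scale genes tested, 3 were higher and 3 lower, the latter by log2 fold changes between -1.10 and -0.17, and in 1, Krt36, both 1w pw2 plates lay above both 1w pw1 plates. The median of 1.07 lay between -0.42 and 2.46 over the settings tried, and was -0.42 without 1w pw2 replicate 1.

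**Figure D4:**
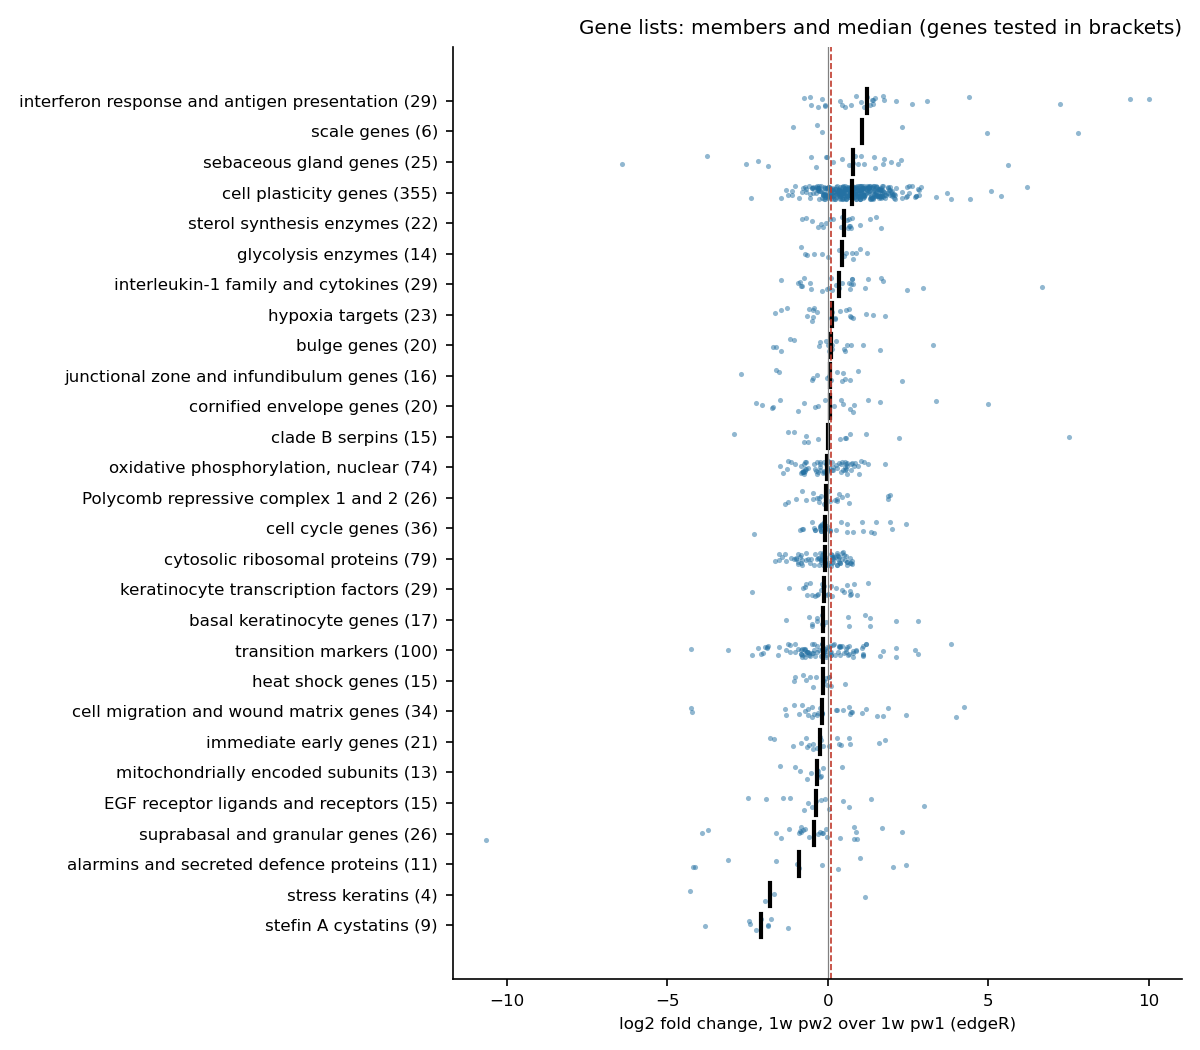
Log2 fold change (1w pw2 over 1w pw1, edgeR) of each tested member of 28 gene lists, with a black bar at the median of the list, a solid line at 0 and a dashed line at the median of all genes, 0.09. Stefin A cystatins and stress keratins lie lowest, with medians of -2.10 and -1.82, and interferon and antigen presentation genes highest, at 1.21.

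A further pair of lists came from the study and were chosen on these same cells, so neither is independent evidence of its direction. The cell plasticity genes were defined by the study as more strongly induced in the second healing, and the direction is therefore part of their choice. Of 355, 298 were higher at 1w pw2, 150 with separate plates (42.3% of the list against 19.9%), and the median log2 fold change was 0.77. At an unadjusted p below 0.05, 63 (17.7% against 3.38%) were higher and 0 lower in edgeR. DESeq2 called 5 of them (1.41% against 0.197%). The 5 were Matn2, Prss23 and Itga2, with the values above, Sncg, synuclein gamma, at 0.523 and 0.293 CPM at 1w pw1 and 15.6 and 2.37 CPM at 1w pw2, and Fa2h, a fatty acid hydroxylase, at 0.262 and 0.0586 CPM and 15.1 and 9.28 CPM. Fa2h was detected in only 2 and 3 cells at 1w pw2, and 1 cell carried 88.0% of its counts on replicate 1. Summed over the list, the level was 18356 and 13685 CPM at 1w pw1 and 23506 and 28852 CPM at 1w pw2, but 33607 and 41768 CPM at 8w pw1 and 21099 and 18400 CPM at 0w, so the highest plates were those of healed skin. The median was 0.50 without 1w pw2 replicate 1 and 1.11 without 1w pw1 replicate 1.

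Ddx23, an RNA helicase of the spliceosome, was among the plasticity genes that led the ranking, at 19.2 and 8.85 CPM at 1w pw1 and at 52.2 and 52.6 CPM at 1w pw2. After thinning it was detected in 18 and 14 cells at 1w pw1 and in 48 and 61 cells at 1w pw2, and no single cell carried over 11.4% of its counts on any of these 4 plates. Ccdc184, also on that list, stood at 13.3 and 8.61 CPM at 1w pw1 and at 25.5 and 68.7 CPM at 1w pw2. The 8w pw1 plates stood at 79.5 and 74.1 CPM for Ddx23, above the 6 other plates, and at 64.8 and 97.9 CPM for Ccdc184. Tbc1d19, of a family of Rab regulators, S100pbp, an S100 binding protein, and Aldh2, mitochondrial aldehyde dehydrogenase, had log2 fold changes of 2.06, 2.19 and 2.07, and with Thbs1, Eno1b, Matn2, Itga2, Prss23, Cldn4 and Krt36 they were the 12 higher genes named by that ranking.

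The transition markers, 100 genes that the study took from the cells between follicle and wound epidermis, did not differ in one direction. Of these, 42 were higher and 58 lower, and the median log2 fold change was -0.15. Plates were separate in 9 of the higher (9% of the list against 19.9% of all genes) and 23 of the lower (23% against 17.4%). At an unadjusted p below 0.05, 6 were higher (6% against 3.38% of all genes) and 7 lower (7% against 2.63%). Lower members were Krt6a, Fam162a, Ly6a, Serpinb6a and Gjb6, connexin 30, which stood at 99.2 and 84.4 CPM at 1w pw1 and at 8.33 and 27.7 CPM at 1w pw2. Higher members were Prss23, Itga3, Itgb4 and Slc2a1. Summed, the list was at 104695 and 55547 CPM at 1w pw1 and at 30252 and 34954 CPM at 1w pw2.

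The genes DESeq2 called differed in how many cells carried them. In 30 of the 42, 1 cell held over 50% of the counts on a plate of the higher group, 20 were seen in fewer than 5 cells of such a plate, and 30 had a mean log2 CPM below 4. Serpinb9, an inhibitor of granzyme B with the lowest adjusted p (6.23e-06), stood at 0 and 0.176 CPM at 1w pw1 and at 24.3 and 11.8 CPM at 1w pw2, where it was detected in 5 cells and 1 cell. Spink6, a skin inhibitor of kallikreins, stood at 0.0654 and 0.234 CPM at 1w pw1 and at 19.5 and 13.1 CPM at 1w pw2, in 5 and 10 cells. Fam110c stood at 0.327 and 0.351 CPM and at 10.1 and 12.1 CPM, in 11 and 10 cells, Mipol1 at 1.44 and 1.58 CPM and at 10.1 and 38.3 CPM, in 7 and 10 cells, and Raver2 at 0.131 and 0.644 CPM and at 4.83 and 20.3 CPM, in 5 and 4 cells. Rab6b, a small GTPase, was lower, at 10.1 and 4.16 CPM at 1w pw1 and at 0.350 and 0.0540 CPM at 1w pw2, and was detected in 16 and 10 cells and in 2 cells and 1 cell. Several of the called genes, such as Serpinb9 and Raver2, thus rest on a few cells.

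**Figure D5:**
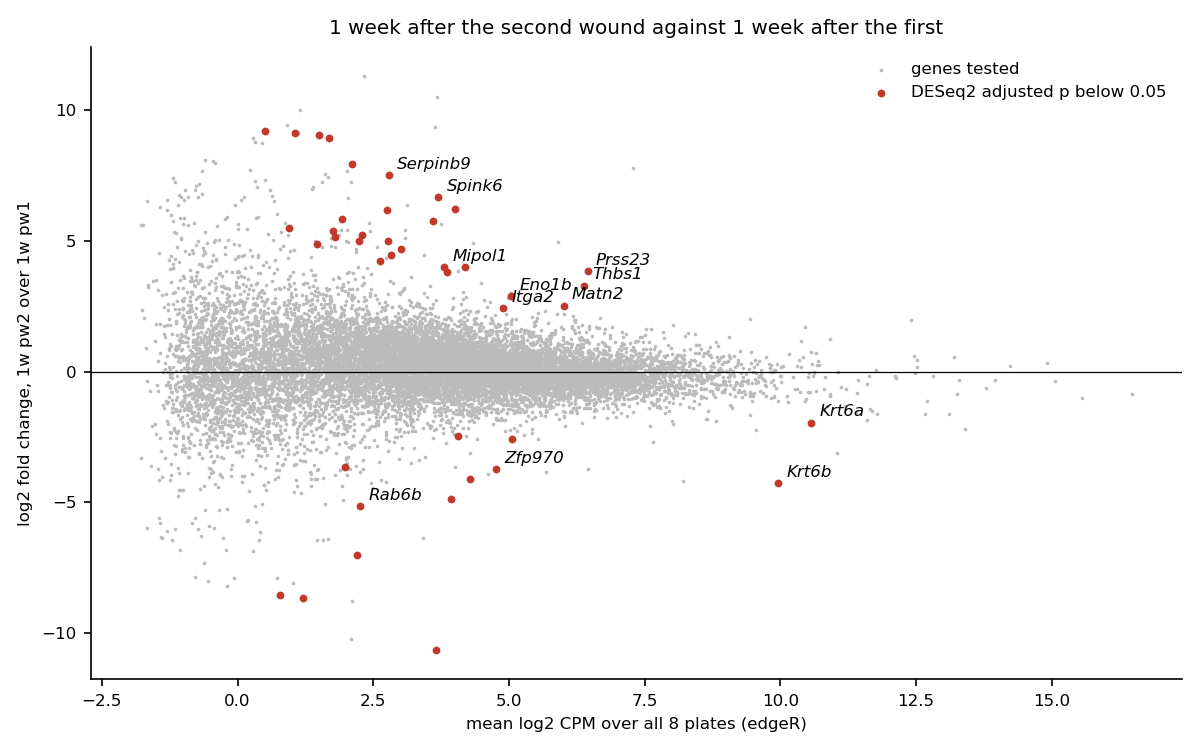
Log2 fold change (1w pw2 over 1w pw1, edgeR) against mean log2 CPM over all 8 plates, 1 point per gene tested; red points are the genes with a DESeq2 adjusted p below 0.05. Krt6b and Krt6a are the called genes with the highest mean level, and 30 of the 42 called genes have a mean log2 CPM below 4.

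Markers of other cell types differed between plates in places. Ptprc, the pan-leukocyte gene, stood at 0.131 and 0.293 CPM at 1w pw1 and at 2.73 and 15.8 CPM at 1w pw2, in 2 and 2 and in 3 and 7 cells, and DESeq2 called it (adjusted p = 0.0362). The 8 T and NK cell markers, of which Trac, Trdc, Nkg7 and Cd2 were not in the table, summed to 4.18 and 3.22 CPM at 1w pw1 and 4.06 and 20.2 CPM at 1w pw2. The macrophage and dendritic cell markers, 4 of 12 in the table, summed to between 0.938 and 7.34 CPM on the 4 plates compared, with the highest of these on the same plate, 1w pw2 replicate 2, that held Cd74, Gbp2 and Gbp7. Fibroblast markers, 5 of 8 in the table, summed to 1.96 and 0.586 CPM at 1w pw1 and 3.71 and 15.9 CPM at 1w pw2, and Dcn, decorin, was at 0 CPM on 1w pw2 replicate 1 and at 14.7 CPM on replicate 2, in 3 cells (DESeq2 adjusted p = 0.0359). Pecam1, an endothelial gene, stood at 197 and 109 CPM at 1w pw1 and at 308 and 911 CPM at 1w pw2 and was detected in 87 and 74 and in 86 and 90 cells, that is in nearly every keratinocyte, while Cdh5, Tek, Emcn and Cldn5 were not in the table. Melanocyte markers, 3 of 6 in the table, summed to 5.95 and 4.57 CPM at 1w pw1 and 1.82 and 1.996 CPM at 1w pw2, and all 3 were lower, with a median of -2.50. Merkel cell markers, 2 of 5 in the table, summed to 2.88 and 0.176 CPM at 1w pw1 and to 0.28 and 1.03 CPM at 1w pw2, with 1 higher and 1 lower. Muscle and pericyte markers, 4 of 6 in the table, summed to 20.98 and 26.2 CPM and to 19.04 and 44.5 CPM. The 1 of 6 red blood cell markers in the table stayed at 1.89 CPM or below on the 4 plates compared. The part of cells of other types in the results was not tested. Without 1w pw2 replicate 2 the log2 fold changes of Tap2 and H2-K1 were 3.39 and 1.15, while Cd74, Gbp2 and Gbp7 were at most at 0.14 CPM on the 3 plates that remained.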

How the data were processed

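Full-length single-cell RNA sequencing (Smart-seq2, plates, no molecular identifiers) was done on sorted tdTomato-positive keratinocytes. The deposited values are expected counts, which the authors estimated with Salmon 0.13.1 on an Ensembl annotation of GRCm38 (mm10), per the labels and the study's methods; how transcripts were summed to genes is not given in the sources used here. Cells under 1000 genes or over 50% mitochondrial counts had been removed by the authors, and none of the 696 deposited cells falls outside those limits. The table holds 15652 genes, and 96.6% of its values are whole. No normalised values were used.

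Counts were summed over the cells of a plate and rounded. edgeR 4.0.16 (R 4.3.3; TMM scaling, its default filter on low counts, quasi-likelihood test, 4 residual degrees of freedom) was fitted to all 8 plates, with Benjamini-Hochberg adjustment over 13853 genes; a call needed an adjusted p below 0.05 and a fold above 2. Standard errors are the log2 fold change divided by the square root of its F statistic. DESeq2 1.42.0 and other settings were alternatives. The script was tested on simulated data. Genes were named by rule: 8 fixed genes, the 12 higher and 12 lower genes with the lowest unadjusted p, a mean log2 CPM of at least 4, separate plates and at least 5 cells with the gene on each plate of the higher group, leaving out predicted genes and pseudogenes; up to 4 members of each list, any member of lists of up to 16; and up to 10 genes called by DESeq2. Gene lists, members and rules were chosen with earlier results of these data known. Lists are described by counts and medians, with no test. Coordinates are from GENCODE vM21 (GRCm38), matched by symbol for 90 of the 96 genes named, and promoter windows from RefSeq (GRCm38.p6), in which the stress keratins were not matched. Counts of a plate differ between replicates for nearly all genes (Pearson r across genes 0.950 at 1w pw1 and 0.909 at 1w pw2 on the log scale), so no plate was a copy of another.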

Additional observations from a re-analysis of the deposited data

How the results depend on the processing

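edgeR called 0 genes under each of its 16 other settings, with 430 to 1168 genes at an unadjusted p below 0.05, whereas DESeq2 called 42; the cause of the gap between the tools was not tested. The replicate numbers are shared between time points but no label ties them to an animal, a day or 1 of the study's 2 independent experiments, and with 2 numbers they were not taken as pairs (the deviations of same-numbered plates correlated at 0.163 between 1w pw1 and 1w pw2 and at 0.121 to 0.213 over the 6 pairs of time points, so a shared effect of the number is possible). With the replicate number as a block edgeR called 0 genes and 1168 had an unadjusted p below 0.05. Leaving out 1 plate of the 8 at a time gave 0 calls each time. The median log2 fold change of the cell plasticity genes lay between 0.50 and 1.11 over those fits, and that of the glycolysis enzymes between 0.18 and 0.66 over all settings. Of the 28 list medians, 17 changed sign under at least 1 setting and 11 did not. Of the 96 genes named, 93 kept their direction in every fit that gave a value, and in 49 leaving out 1 of the 4 plates compared moved the fold by over 1.5 times. The exceptions in direction were Cd74, at 0 without 1w pw2 replicate 2, Cxcr2, which lay between -1.90 and 0.26 as single plates were left out, and Dcn, at -3.72 when 1w pw2 replicate 2 was left out and 7.17 when replicate 1 of that time point was. In 20 gene and setting pairs, all under DESeq2, a gene passed an adjusted p of 0.05. As for depth, 30 of the 42 genes DESeq2 called had a mean log2 CPM below 4.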
